A study of Mus musculus with 6 samples.

Results

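The genes described here were 10 markers of blood and lymphatic endothelium and of leukocyte adhesion: Pecam1, Cdh5, Kdr, Tek, Lyve1, Prox1, Sele, Selp, Icam1 and Vcam1. They were chosen by symbol. All 10 were among the 15667 genes of the deposited table, and all 10 were among the 14306 genes tested, those with a mean of at least 1 CPM (read counts scaled to a library total of 1000000). RNA was sequenced from ear skin of female mice, 7 to 8 weeks old, on which nymphs of the tick Ixodes scapularis had fed for 48 h, with 10 ticks per mouse. A punch of 3.5 mm was taken at the bite site. Mice of the Adipoq tm1Chan line, on a mixed genetic background, with an intact adiponectin gene (WT, Adipo+/+, n = 3) were compared with littermates homozygous for the null allele (KO, Adipo-/-, n = 3). Adiponectin is a hormone of fat cells, and the allele removes it from every cell. Because the allele came from a different strain, genes linked to it can differ too. All 6 mice carried ticks, and unbitten skin was not analysed here.

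Endothelial cells line blood and lymphatic vessels. Pecam1 and Cdh5 encode adhesion proteins of the junctions between them, Kdr encodes the main receptor for VEGF-A, and Tek encodes Tie2, the receptor for the angiopoietins, which keeps resting vessels stable. Prox1 encodes the transcription factor that specifies lymphatic endothelium, and Lyve1 encodes a hyaluronan receptor of lymphatic capillaries. In inflamed skin, leukocytes leave the blood in steps: they roll on E-selectin (Sele) and P-selectin (Selp), arrest on ICAM-1 (Icam1) and VCAM-1 (Vcam1), and then cross the junctions. Sele, Icam1 and Vcam1 are induced by inflammatory cytokines, while P-selectin is also held ready in storage granules of endothelial cells and platelets. Some of these genes are not restricted to endothelium: for example, Lyve1 is made by some tissue macrophages, and Pecam1 and Selp by platelets and their precursors. Whole skin was sequenced, so the cells that made each transcript, those of Icam1 and Vcam1 included, were not determined.

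Promoter sequences are shown for 3 adhesion genes, because their levels differed most between single libraries and cytokine-responsive elements of such promoters are known. Promoters of 6 of the 10 genes were found in the RefSeq-derived set used here (GRCm38.p6). Those of Pecam1, Cdh5, Lyve1 and Vcam1 were not analysed here. The lines give the 250 bases before the annotated start on the plus strand, at chr1:164047984-164048233 for Sele, chr1:164115014-164115263 for Selp and chr9:21015690-21015939 for Icam1. These 3 windows overlapped no feature of GENCODE M21. Capitals mark matches to GGANNTTCC, a form of the NF-kappaB element, to TGANTCA and to TATAAA, the TATA box, searched on both strands. TGANTCA is a loose form of the AP-1 element, open to any base in the middle. The matches did not overlap one another.
Sele: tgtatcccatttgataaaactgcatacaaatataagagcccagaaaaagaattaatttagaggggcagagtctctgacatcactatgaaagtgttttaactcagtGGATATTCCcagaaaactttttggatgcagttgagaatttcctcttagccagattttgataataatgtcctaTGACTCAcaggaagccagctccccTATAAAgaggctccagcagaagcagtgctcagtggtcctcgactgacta
Selp: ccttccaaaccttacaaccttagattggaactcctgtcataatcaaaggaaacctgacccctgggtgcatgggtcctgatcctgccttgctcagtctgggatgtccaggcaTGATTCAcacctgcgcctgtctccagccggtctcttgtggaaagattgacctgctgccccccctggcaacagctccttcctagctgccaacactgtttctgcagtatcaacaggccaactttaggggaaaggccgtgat
Icam1: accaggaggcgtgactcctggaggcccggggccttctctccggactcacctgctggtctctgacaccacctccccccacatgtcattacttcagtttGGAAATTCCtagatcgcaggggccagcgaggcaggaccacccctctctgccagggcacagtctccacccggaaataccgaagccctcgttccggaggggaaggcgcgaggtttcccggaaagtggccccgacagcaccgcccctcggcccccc
The Sele window held all 3 elements, with GGATATTCC from -145 to -137, TGACTCA from -73 to -67 and TATAAA from -49 to -44 relative to the start. The Selp window held TGATTCA from -139 to -133, a match to the loose AP-1 form only. The Icam1 window held GGAAATTCC from -153 to -145. Among 32851 mouse promoter windows of this length, 3.59% held GGANNTTCC, 6.75% held TGANTCA and 12.4% held TATAAA. The windows of Tek and Kdr held none of the 3, and 1 of the 2 listed windows of Prox1 held TTTATA, the reverse of the TATA box, from -34 to -29. The elements were picked after the sequences had been seen, and a match describes letters only.

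The libraries held an implied 3403773 to 6591329 reads, so that 3 reads corresponded to 0.455 to 0.881 CPM. Adipoq, the targeted gene, was at 30.5, 63.7 and 49.6 CPM in WT replicates 1, 2 and 3 and at 0, 0.561 and 0 CPM in the KO replicates, as labelled. The punches differed in tissue makeup within each group. The summed CPM of 10 hair follicle markers ran from 8.23 to 22140 in WT and from 907.5 to 8835 in KO, with 8 of them at 0 in WT replicate 1 and 3 in WT replicate 2. All 10 were positive on the log2 scale in the comparison of KO with WT, although their summed mean CPM was higher in WT (7385 against 3836), and 0 had an unadjusted p below 0.05. Krt71 had the smallest p (0.134). The 9 keratinocyte markers tested were also all positive, with a summed CPM of 26900 to 38150 in WT and 32480 to 46420 in KO, and Krt10 had the smallest p (0.121). Their part in the results was not tested. In the sum of Pecam1, Cdh5, Kdr and Tek, KO replicate 1 stood apart at 78.6 CPM, against 115.5, 124.7 and 119.9 in WT and 113.5 and 112.5 in the other KO libraries. Log2 fold changes without it are also given for the members that it moved most and for some gene lists. They are not given for single genes of the lists. Since whole skin was sequenced, fewer cells of a type and less RNA per cell cannot be told apart. Each group was 3 mice with a single punch each in the study's methods, and p-values measure the spread between these libraries, part of which may be technical.

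Most differences between KO and WT skin in these genes lay within the spread between mice. The log2 fold change (KO minus WT, from log2(CPM + 0.5)) was negative for 9 of the 10 genes and positive for Icam1, with a median of -0.34. Over all genes tested, the median was -0.032 and 56.7% were negative. Tek and Lyve1 were lower in KO at an unadjusted p below 0.05 in limma, against 1.82% of all genes tested, and 0 of the 10 were higher, against 1.06%. None reached an adjusted p below 0.05 (Benjamini-Hochberg in limma over all genes tested). The adjusted p was 0.9985 for each of the 10. An adjusted p below 0.05 was reached by 0.014% of genes, Adipoq among them. In Tek and Prox1 every KO library lay below every WT library, as in 4.89% of all genes tested. No member had all KO values above all WT values, as 2.95% of genes did. No other gene of the table overlapped a member. In GENCODE M21, however, 7 noncoding genes on the opposite strand overlapped 5 members (Cdh5, Icam1, Prox1, Selp and Vcam1), Prox1os and Gm28172 at Prox1 among them, and without strand their reads could not be told apart. No member had the same 6 values as another gene.

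**Figure D1:**
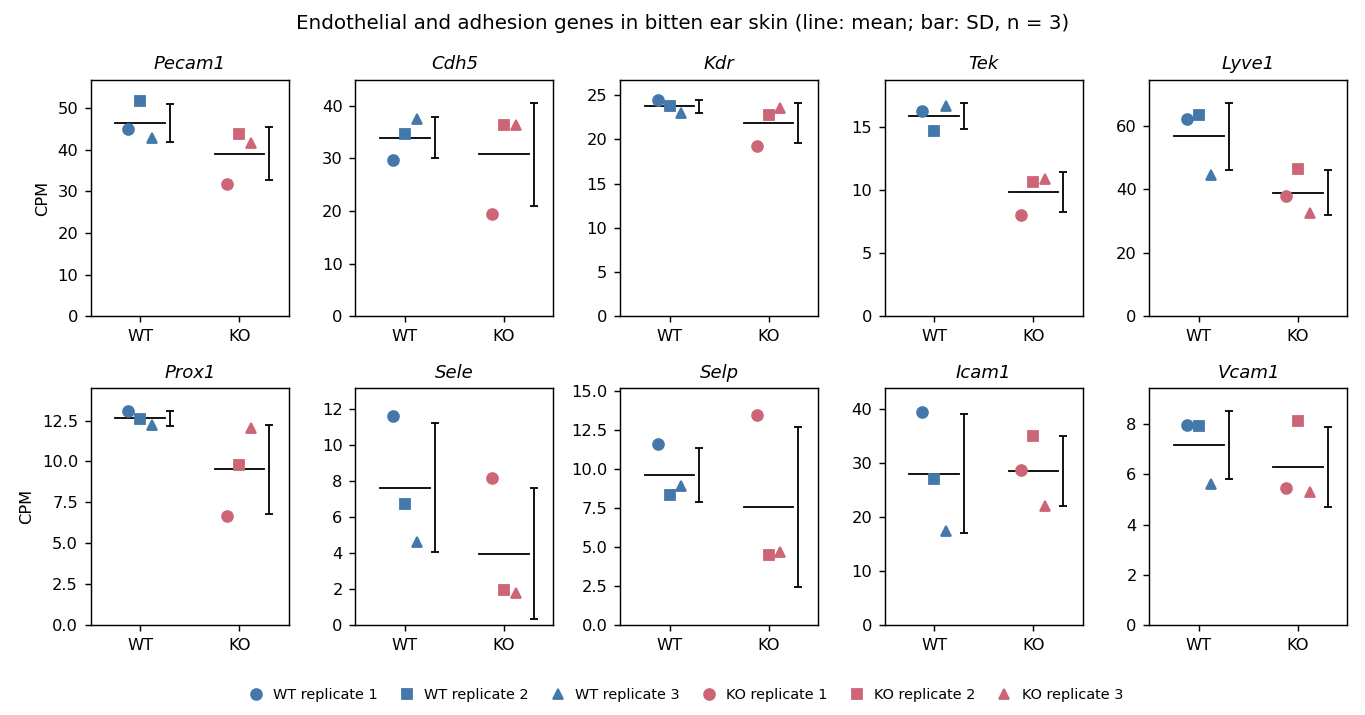
Level of each of the 10 genes in CPM (vertical axes from 0) in WT (blue) and KO (red) libraries. Each point is a mouse, with its replicate number given by the symbol, the line is the group mean and the bar beside it the SD (n = 3). The KO points of Tek lie at 8.04 to 10.9 CPM, all below the WT points at 14.6 to 16.7 CPM.

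Levels were also set side by side per kb of exon, the length being the union of protein-coding exons in GENCODE M21. In WT skin Lyve1 was at the head of this order, at 19.6 ± 3.66 CPM per kb (SD, n = 3), with all WT values above those of Pecam1. Pecam1 (11.3 ± 1.11), Icam1 (11.04 ± 4.35) and Cdh5 (8.49 ± 0.968) followed with overlapping values between neighbours. Kdr came next at 4.004 ± 0.130, below Cdh5 in every WT library, then Tek at 3.37 ± 0.224, below Kdr. Tek, Selp (2.80 ± 0.510) and Sele (2.63 ± 1.23) overlapped from neighbour to neighbour. At the foot, Prox1 (1.51 ± 0.0519) lay below Sele in WT skin and overlapped with Vcam1 (1.44 ± 0.273). In KO skin the mean of Sele was 1.36 ± 1.26 CPM per kb and its values overlapped with those of Prox1 (1.13 ± 0.322). All 6 endothelial markers were thus detected in every library.

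The junction genes Pecam1 and Cdh5 and the VEGF receptor gene Kdr did not separate the groups. Pecam1 (chromosome 11, 106654213 to 106715281, GRCm38, minus strand) was at 45.0, 51.7 and 42.9 CPM in WT and at 31.9, 43.7 and 41.7 CPM in KO. KO replicates 2 and 3 lay beside the lowest WT library, and KO replicate 1 lay below all others. Its means were 46.5 ± 4.59 and 39.1 ± 6.35 CPM (SD, n = 3), and its log2 fold change was -0.26 (SE 0.16, 95% interval -0.62 to 0.11), and -0.12 without KO replicate 1. Cdh5 (chromosome 8, 104101625 to 104144502, plus strand) was at 29.8, 34.6 and 37.4 CPM in WT and at 19.4, 36.4 and 36.4 CPM in KO. The sign of the difference in Cdh5 rested on KO replicate 1: with all libraries the log2 fold change was -0.19 (SE 0.25, 95% interval -0.77 to 0.39), and without that library it was 0.11. Kdr (chromosome 5, 75932827 to 75978455, minus strand) was at 24.4, 23.8 and 22.9 CPM in WT and at 19.3, 22.7 and 23.5 CPM in KO. Of the 10 genes Kdr varied least, its highest library standing 1.27-fold above its lowest in CPM. Its log2 fold change was -0.12 (SE 0.15, 95% interval -0.46 to 0.22), and -0.037 without KO replicate 1. The unadjusted p in limma was 0.143 for Pecam1, 0.474 for Cdh5 and 0.427 for Kdr.

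Tek had the smallest unadjusted p of the 10. Tek (chromosome 4, 94739289 to 94874976, plus strand) was at 16.2, 14.6 and 16.7 CPM in WT replicates 1, 2 and 3 and at 8.04, 10.6 and 10.9 CPM in the KO replicates. The groups did not overlap, and the lowest WT library stood above the highest KO library. The WT mean was 15.8 ± 1.06 CPM and the KO mean 9.85 ± 1.57 CPM (SD, n = 3), 1.61-fold higher in WT. The log2 fold change was -0.67 (SE 0.19, 95% interval -1.11 to -0.22), with an unadjusted p of 0.00879 and an adjusted p of 0.9985 in limma. In order of unadjusted p it was gene 55 of the 14306 tested. Leaving out any library, or changing the pseudocount, filter, scaling or model, gave -0.74 to -0.535 with unadjusted p of 0.00547 to 0.0303. An exact permutation test of 3 against 3 libraries cannot give a p below 0.1.

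Tek was also low in KO relative to Pecam1, Cdh5 and Kdr. Per 100 CPM of Pecam1, Cdh5, Kdr and Tek together, Tek made up 14.0, 11.7 and 13.9 in WT and 10.2, 9.38 and 9.66 in KO. The groups did not overlap in this share, and KO replicate 1, low in all 4 genes, had the highest KO share. The ratio of Tek to Pecam1 was 0.360, 0.284 and 0.389 in WT and 0.252, 0.244 and 0.261 in KO, again without overlap. These ratios reuse the values of Tek, and they are given without a test.

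Markers of other tissues were set beside Tek, and their part in its values was not tested. None of them reached an adjusted p below 0.05 in limma. All 10 adipocyte markers were negative, with a median log2 fold change of -0.785 (-0.458 without KO replicate 1 and -1.292 without KO replicate 2), and 3 were lower at an unadjusted p below 0.05: Fabp4 (-0.94), Retn (-1.23) and Car3 (-0.70). Their summed CPM was 817.2 to 1201 in WT and 488.5 to 1144 in KO, with none at 0. All 10 skeletal muscle markers were negative as well, with a median of -0.51 (-0.365 without KO replicate 1 and -0.796 without KO replicate 3), and Myh1 (-0.51), Mylpf (-0.51) and Mb (-0.46) were lower at an unadjusted p below 0.05. Their summed CPM was 4673 to 6009 in WT and 2886 to 5658 in KO. KO replicate 2, with Tek at 10.6 CPM, had an adipocyte sum within the WT range (1144 CPM) and a muscle sum below it (3541 CPM). KO replicate 3, with Tek at 10.9 CPM, had a muscle sum within the WT range (5658 CPM) and an adipocyte sum below it (584.6 CPM). KO replicate 1 was below the WT range in both sums. Among 10 pericyte and smooth muscle markers 8 were negative, with a median of -0.24 (-0.054 without KO replicate 1), and 0 had an unadjusted p below 0.05. Their summed CPM was 639.3 to 794.8 in WT and 505.8 to 811.5 in KO, and Acta2, the smooth muscle actin gene, had the smallest p (0.170) at -0.48.

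Partners of Tie2 were examined next. Ptprb, whose product VE-PTP removes phosphate from Tie2, was at 44.8, 42.7 and 39.4 CPM in WT and at 24.0, 34.5 and 35.3 CPM in KO. Its groups did not overlap, and its log2 fold change was -0.45 (SE 0.17, unadjusted p 0.0324, adjusted p 0.9985 in limma). KO replicate 1 stood well below the other KO libraries, and no fold change without it is given. Angpt1, the activating ligand made by cells around the vessel, was at 5.57, 7.73 and 7.09 CPM in WT and at 3.64, 5.32 and 4.995 CPM in KO. These groups did not overlap either, but the log2 fold change of -0.505 (SE 0.26) had an unadjusted p of 0.0906. Angpt2, the ligand released by activated endothelium, overlapped between groups at 4.45 to 6.92 CPM in WT and 3.82 to 5.32 CPM in KO (-0.23, unadjusted p 0.427). Its locus overlaps Mcph1 on the other strand, and whether counting used strand was not stated in the sources used here. Tie1, the orphan relative of Tie2 in the same receptor complex, was at 12.8, 14.2 and 14.2 CPM in WT and at 7.89, 13.5 and 13.8 CPM in KO. KO replicate 1 alone stood below the WT range, and the log2 fold change was -0.26 (unadjusted p 0.317). Robo4, an endothelial receptor of the Roundabout family, was at 6.78, 8.75 and 5.11 CPM in WT and at 2.73, 4.76 and 3.82 CPM in KO. It did not overlap between groups, at a log2 fold change of -0.79 (SE 0.31, unadjusted p 0.0347, adjusted p 0.9985 in limma).

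**Figure D2:**
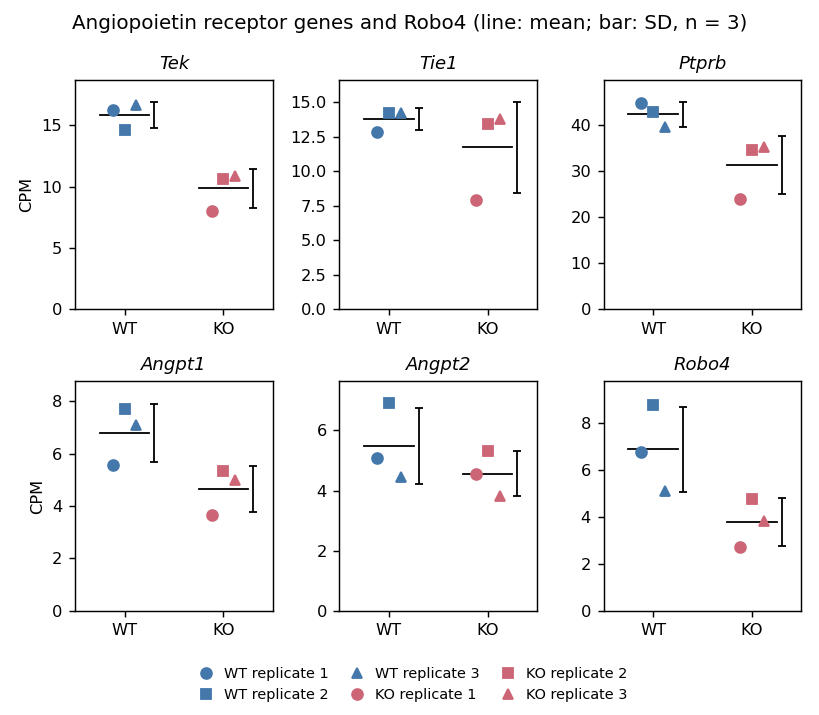
Levels in CPM (vertical axes from 0) of Tek, its partners Tie1, Ptprb, Angpt1 and Angpt2, and Robo4, with WT libraries in blue, KO libraries in red, the group mean as a line and the SD as a bar (n = 3). Tek, Ptprb, Angpt1 and Robo4 do not overlap between groups, while Tie1 and Angpt2 do.

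The wider set of vascular genes gave a weaker picture. Of 25 other vascular endothelial genes, 20 were negative and 5 positive, with a median of -0.18. Leaving out KO replicate 1 gave a median of -0.011, and leaving out KO replicate 2 gave -0.357. Ptprb and Robo4 were lower in KO at an unadjusted p below 0.05, 0 were higher, and 3 had all KO values below all WT values. The third was Tal1, a transcription factor gene of blood and endothelial cells, at -0.36, named here after its values were seen. A larger drop than that of Tek was thus not particular to it. Beside Robo4, Icam2 (-0.85, unadjusted p 0.162 in limma) and Nos3 (-0.80, unadjusted p 0.0671) had larger log2 fold changes, with overlapping groups. Both are also named after their values were seen. The summed CPM of the 25 genes was 380.2, 441.6 and 367.2 in WT and 258.1, 411.4 and 383.4 in KO. KO replicate 1 was again the lowest, and the other KO libraries lay within the WT range. Vwf, encoding von Willebrand factor, was at 30.2 ± 6.71 CPM in WT skin and 33.5 ± 13.5 in KO skin (SD, n = 3), and Cldn5, encoding the tight junction protein claudin-5, at 7.67 ± 0.711 and 7.29 ± 1.99 CPM. Neither differed beyond its spread, at log2 fold changes of 0.071 and -0.096. Flt1, encoding VEGF receptor 1, was at 20.6, 19.9 and 18.8 CPM in WT and at 15.5, 28.6 and 24.4 CPM in KO, at 0.16 (unadjusted p 0.511). Of 9 VEGF and angiopoietin ligands and co-receptors 7 could be tested, with 5 negative, 2 positive, a median of -0.13 (-0.356 to -0.038 with a library left out) and 0 at an unadjusted p below 0.05. Vegfa, the ligand of the receptors encoded by Kdr and Flt1, was at 26.5 ± 8.64 CPM in WT skin and 23.6 ± 4.01 in KO skin.

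Both lymphatic markers were lower on average in KO skin. Lyve1 (chromosome 7, 110850607 to 110862953, minus strand) was at 62.2, 63.5 and 44.5 CPM in WT and at 37.9, 46.5 and 32.6 CPM in KO. The groups overlapped, since KO replicate 2 stood above WT replicate 3. The means were 56.7 ± 10.6 and 39.0 ± 7.02 CPM (SD, n = 3). The log2 fold change was -0.53 (SE 0.19, 95% interval -0.97 to -0.094), with an unadjusted p of 0.0233 and an adjusted p of 0.9985 in limma, gene 176 in order of unadjusted p. The unadjusted p rose above 0.05 without WT replicate 1 (-0.46, p 0.0726), WT replicate 2 (-0.44, p 0.0854), KO replicate 1 (-0.52, p 0.0575) or KO replicate 3 (-0.41, p 0.0862). Per 100 CPM of the 4 vascular markers, Lyve1 was at 53.9, 50.9 and 37.1 in WT and at 48.3, 41.0 and 29.0 in KO, which overlapped.

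Lyve1 is also a gene of some skin macrophages. Of 10 macrophage markers 8 were negative and 2 positive, with a median of -0.12 and 0 at an unadjusted p below 0.05. The median turned to 0.16 without WT replicate 2 and to 0.135 without KO replicate 1. Their summed CPM was 1010, 1279 and 740.9 in WT and 720.5, 1259 and 842.9 in KO, with none at 0. KO replicate 2 and WT replicate 2, the highest of their groups for Lyve1, were also the highest of their groups for this sum. WT replicate 1, however, had Lyve1 close to that of WT replicate 2 (62.2 against 63.5 CPM) at a lower sum. KO replicate 3 had a higher sum than KO replicate 1 but less Lyve1 (32.6 against 37.9 CPM). Cd163, a scavenger receptor gene of resident macrophages, had the smallest p of the list (0.291) at -0.45. The part of macrophages in the Lyve1 values was not tested.

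Prox1 (chromosome 1, 190118035 to 190170827, minus strand) was at 13.1, 12.6 and 12.2 CPM in WT and at 6.68, 9.81 and 12.1 CPM in KO. The WT libraries lay close together, the KO libraries were spread out, and the highest of them stood just below the lowest WT library. The means were 12.6 ± 0.436 and 9.51 ± 2.698 CPM (SD, n = 3), at a log2 fold change of -0.43 (SE 0.24, 95% interval -0.99 to 0.13, unadjusted p 0.115 in limma). Prox1 was no longer separated after rescaling by the median of ratios or by quantiles. Leaving out KO replicate 1 gave a log2 fold change of -0.21 (unadjusted p 0.359), and leaving out KO replicate 3 gave -0.61 (p 0.0421). Of 7 other lymphatic genes tested, 6 were negative and 1 positive, with a median of -0.30 (-0.192 without KO replicate 1 and -0.468 without KO replicate 2). Mmrn1, encoding a secreted protein of lymphatic endothelium and platelets, was at 43.3, 49.6 and 72.4 CPM in WT and at 30.5, 38.7 and 44.7 CPM in KO (-0.515, unadjusted p 0.0481). Flt4, encoding the VEGF-C receptor VEGFR-3, was at 32.7, 29.5 and 38.1 CPM in WT and at 23.4, 32.2 and 25.8 CPM in KO (-0.30, unadjusted p 0.118). Its ligand gene Vegfc was at 3.06 ± 1.65 CPM in WT skin and 2.63 ± 0.777 in KO skin.

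The selectins differed more between mice than any other member, and differences among KO mice were as large as those between groups. Sele (chromosome 1, 164048234 to 164057677, plus strand) was at 11.6, 6.71 and 4.62 CPM in WT and at 8.19, 1.96 and 1.76 CPM in KO. These were 48, 33 and 28 implied reads in WT and 54, 7 and 6 in KO. KO replicates 2 and 3 lay below all WT libraries, whereas KO replicate 1 lay above 2 of the 3. The 95% Poisson intervals, which cover counting error only, were 0.789 to 4.04 and 0.647 to 3.84 CPM for KO replicates 2 and 3 and 3.07 to 6.67 CPM for WT replicate 3. The means were 7.65 ± 3.59 and 3.97 ± 3.66 CPM (SD, n = 3), at a log2 fold change of -1.07 (SE 0.57, 95% interval -2.38 to 0.24, unadjusted p 0.0968 in limma). Without KO replicate 1 the log2 fold change was -1.70 (unadjusted p 0.00572), without WT replicate 3 it was -1.36 (p 0.0479), and without any of the other 4 it was -1.11 to -0.725 with p above 0.05.

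Selp (chromosome 1, 164115264 to 164150026, plus strand), which lies close to Sele in the genome, had the same split of the KO libraries. It was at 11.6, 8.34 and 8.90 CPM in WT and at 13.5, 4.48 and 4.70 CPM in KO, or 48, 41 and 54 implied reads against 89, 16 and 16. KO replicate 1 was the highest of all 6 libraries and the other KO libraries were the lowest. The means were 9.62 ± 1.75 and 7.56 ± 5.15 CPM (SD, n = 3), at a log2 fold change of -0.49 (SE 0.41, 95% interval -1.44 to 0.46, unadjusted p 0.266 in limma). It was -0.98 (unadjusted p 0.0086) without KO replicate 1 and -0.58 to -0.23, with p above 0.05, without any of the others. Relative to the summed vascular markers KO replicate 1 was further out, since those markers were lowest in it. Per 100 CPM of Pecam1, Cdh5, Kdr and Tek, Selp was at 10.1, 6.69 and 7.43 in WT and at 17.2, 3.95 and 4.18 in KO. On the same scale Sele was at 10.1, 5.38 and 3.85 in WT and at 10.4, 1.73 and 1.57 in KO. The ratio of Sele to Selp was 1, 0.805 and 0.519 in WT and 0.607, 0.438 and 0.375 in KO, which overlapped.

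Neutrophil and platelet markers were set beside the selectins, and their part in these values was not tested. Of 10 neutrophil markers 8 were in the table and 7 were tested, with 5 negative, 2 positive, a median of -0.55 and 0 at an unadjusted p below 0.05. The positive ones were the receptor genes Cxcr2 (0.40) and Csf3r (0.19). The median rested on single WT libraries, at 0.34 without WT replicate 1 and -1.34 without WT replicate 3. Their summed CPM was 581.2, 217.7 and 36.3 in WT and 203.3, 94.4 and 93.4 in KO. In WT replicate 1 its largest parts were S100a9 (273 CPM) and S100a8 (143.1 CPM). WT replicate 1 and KO replicate 1, each the highest of its group for Sele and Selp, were also the highest of their groups for this sum. WT replicate 3 had the lowest neutrophil sum, and its Sele and Selp stood above those of KO replicates 2 and 3. Only Mmp8 was listed at 0, in KO replicate 3, and Lcn2 had the smallest p (0.208) at -0.85. Of 8 platelet markers 5 were tested, with 3 negative and 2 positive, and the summed CPM of the 6 in the table was 71.4 to 80.6 in WT and 51.9 to 76.2 in KO. KO replicate 1, with the highest Selp, had the lowest platelet sum, and in it Gp9 was listed at 0. Itga2b had the smallest p of that list (0.120) at -0.57.

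**Figure D3:**
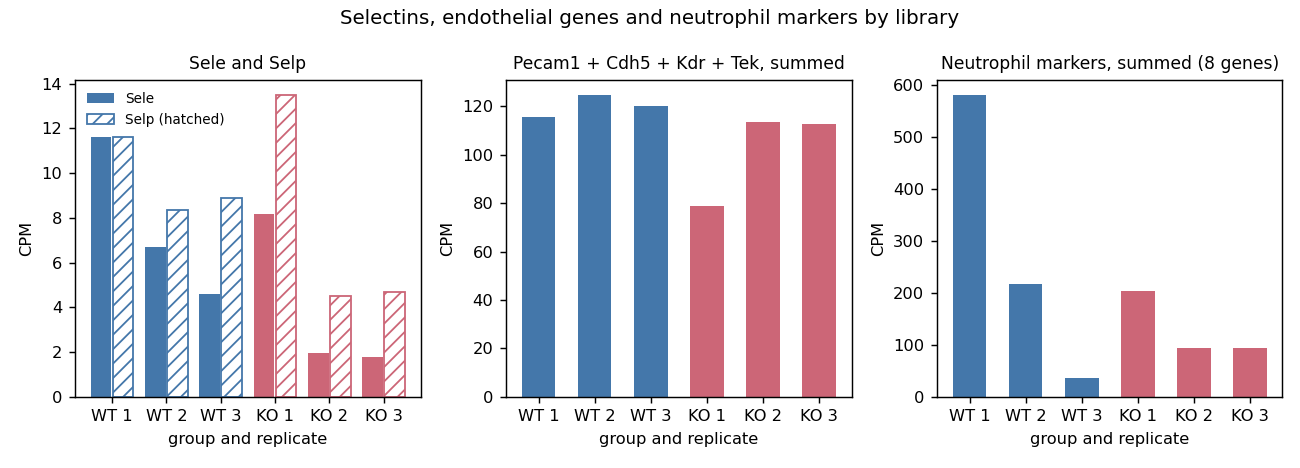
Bars give CPM from 0 in each library, with WT in blue and KO in red: Sele (filled) and Selp (hatched) on the left, the sum of Pecam1, Cdh5, Kdr and Tek in the middle, and the sum of 8 neutrophil markers on the right. KO replicate 1 holds the lowest vascular sum (78.6 CPM) but the highest Selp (13.5 CPM), and the neutrophil sum is lowest in WT replicate 3 (36.3 CPM).

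Icam1 and Vcam1, the immunoglobulin-family ligands of leukocyte integrins, did not separate the groups. Icam1 (chromosome 9, 21015940 to 21028814, plus strand) was at 39.4, 27.1 and 17.5 CPM in WT and at 28.7, 35.0 and 22.0 CPM in KO. All 3 KO values lay inside the WT range. The means were 28 ± 11.02 and 28.6 ± 6.50 CPM (SD, n = 3), at a log2 fold change of 0.080 (SE 0.30, 95% interval -0.615 to 0.77, unadjusted p 0.798 in limma). The sign turned to -0.215 without WT replicate 3 and to -0.077 without KO replicate 2. Vcam1 (chromosome 3, 116110020 to 116129688, minus strand) was at 7.99, 7.93 and 5.61 CPM in WT and at 5.46, 8.13 and 5.29 CPM in KO. The highest library was a KO library, and so was the lowest. The log2 fold change was -0.185 (SE 0.27, 95% interval -0.81 to 0.44, unadjusted p 0.513 in limma). With 3 mice a group both intervals span 0 widely, so a modest change of either gene in either direction lay within them.

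Genes of the counter-receptors on leukocytes were measured in the same libraries, in whole skin. The most abundant, Cd44, Itgb1 and Glg1, had WT means of 499.6, 354.1 and 215.4 CPM, against 9.04 CPM for Itgal. The cells that made them were not determined, so the list is not a measure of leukocytes alone. Of 12 such genes 7 were negative and 5 positive, with a median of -0.076, and 0 had an unadjusted p below 0.05. With a library left out the median ran from -0.378 (without WT replicate 3) to 0.119 (without WT replicate 2), and its sign turned in 4 of the 6 cases, the other 3 being those without WT replicate 1, KO replicate 1 and KO replicate 3. Selplg, encoding the selectin ligand PSGL-1, was at 17.3 ± 4.87 CPM in WT skin and 17.4 ± 3.19 in KO skin (SD, n = 3). Itgal and Itgam, which pair with Itgb2 to form the integrins LFA-1 and Mac-1 that bind ICAM-1, had log2 fold changes of -0.335 and -0.12, and Itgb2 one of 0.018. Itga4 and Itgb1, which form the VCAM-1 receptor VLA-4, were at -0.21 and -0.19. Spn, encoding the sialoglycoprotein CD43, had the smallest p of the list: it was at 5.34 ± 1.90 CPM in WT skin and 8.44 ± 1.32 in KO skin, at 0.65 (SE 0.29, unadjusted p 0.0552). Of 13 other adhesion and junction genes of leukocyte passage 10 were tested, with 7 negative, 3 positive, a median of -0.12 (0.039 without WT replicate 3) and 0 at an unadjusted p below 0.05. Mcam, the gene of the endothelial adhesion protein CD146, had the smallest p of these (0.122) at -0.425. Jup and Ctnnd1 were the most abundant of these, with WT means of 1419 and 465.3 CPM, and the cells that made them were not determined either.

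Receptors for vasoactive mediators, which open junctions or set vessel tone, were the last vascular list. Of 8 tested, 7 were negative and 1 positive, with a median of -0.30. Procr, encoding the endothelial protein C receptor, was at 12.1, 10.8 and 19.6 CPM in WT and at 6.98, 11.2 and 4.41 CPM in KO (-0.91, unadjusted p 0.0370, adjusted p 0.9985 in limma). Ednra, the endothelin receptor gene of smooth muscle, was at 14.5, 19.1 and 20.3 CPM in WT and at 11.1, 14.6 and 12.9 CPM in KO (-0.46, unadjusted p 0.0499). Both overlapped between groups by a single KO library. F2r, encoding the thrombin receptor PAR1, had all KO values above all WT values, at 0.35, and is named after its values were seen. Hrh1, the histamine H1 receptor gene through which histamine loosens endothelial junctions, was at 1.94, 1.02 and 2.14 CPM in WT and at 1.21, 1.68 and 2.06 CPM in KO. Its log2 fold change was -0.011 with a 95% interval from -0.92 to 0.90, so changes of nearly 1 log2 unit in either direction lay within the interval.

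**Figure D4:**
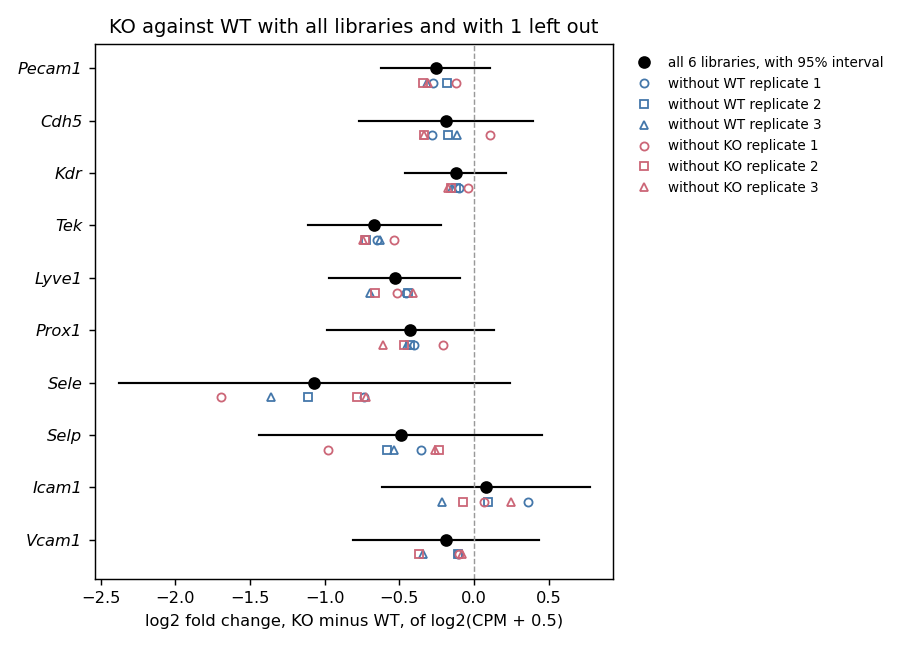
Log2 fold change (KO minus WT, on the log2(CPM + 0.5) scale) of each gene with all 6 libraries (black point, with its 95% interval as a line) and with each library left out in turn (open symbols below). The dashed line marks no change. Every estimate for Tek stays between -0.74 and -0.535, Sele moves between -1.70 and -0.725, and Cdh5 and Icam1 cross 0.

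KO replicate 1 weighed on the members in both directions. It held the lowest value of 5 of the 10 genes (Pecam1, Cdh5, Kdr, Tek and Prox1) and the highest of Selp. KO replicate 3 held the lowest value of 3 (Lyve1, Sele and Vcam1), and WT replicate 1 the highest of 4. In CPM the highest library stood above the lowest 6.59-fold for Sele, 3.01-fold for Selp, 2.26-fold for Icam1 and 2.07-fold for Tek, and 1.27-fold to 1.96-fold for the others. Without KO replicate 1 the median log2 fold change of the 10 genes was -0.16, and Tek, at -0.535, kept an unadjusted p below 0.05.

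Genes with the pattern most like that of a member over the 6 libraries were sought among all genes tested, by the root mean square difference of log2(CPM + 0.5) after centring each gene. For Tek these included Klhl2 (0.099) and Utp23 (0.11). For Sele, the member with the widest range, they were Dusp9 (0.14), Dusp1 (0.26) and Fsbp (0.33). Dusp1, an early response gene whose product dephosphorylates MAP kinases, was at 188.8, 180.4 and 89.5 CPM in WT and at 137.0, 54.4 and 48.2 CPM in KO. Dusp9 and Fsbp were at most at 3.63 and 3.87 CPM in any library, so their likeness rests on few reads. This describes 6 values per gene and was not tested.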

How the data were processed

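RNA was extracted from punches of bitten ear skin and sequenced as paired ends. The authors trimmed the reads, aligned them to mm10 with STAR (2.7.3a), quantified Ensembl transcripts by expectation-maximization in Partek Flow and added transcripts up by gene. The deposited unit is CPM: each count was divided by the library total and an offset of 0.0001 was added. Depth was worked out from the CPM step of a single read. Between 91.9% and 92.8% of values below 20 reads came within 0.1 of a whole number, too few for a count model, and implied reads are estimates. Reads of near-identical genes can be split. Coordinates (GRCm38) follow the table, with 1 taken off each end position.

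Genotypes were taken from the labels. KO was compared with WT by limma (3.58.1, R 4.3.3; lmFit, eBayes with trend), two-sided, without covariates, on log2(CPM + 0.5) of 14306 genes (mean CPM of 1 or more), with Benjamini-Hochberg adjustment over all of them. This scale understates the change of low genes. The authors' own test model for skin was not stated in the sources used here.

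The members and gene lists were chosen with earlier results of these data known. Named beside the members were Adipoq, list genes at an unadjusted p below 0.05 or otherwise with the smallest p of their list, 16 partner genes, and the 3 genes most alike in pattern to 2 members, of which 1 is not reported here. Alternatives were other pseudocounts (0.1, 2), filters (none, 5 CPM), scalings (median of ratios, quantile), no trend, a replicate block, and leaving out each library.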

Additional observations from a re-analysis of the deposited data

How the results depend on the processing

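Over the alternatives, 62 values that answer a comparison stayed close and 8 moved. The values that stayed close include the counts of members higher in KO and of members at an adjusted p below 0.05. Both were 0 in every setting. A count of 3 members against 2 was also taken as close. For single members 128 kept their direction and side of an unadjusted p of 0.05, 5 passed it anew, 4 lost it and 3 changed sign. Of 238 list medians 8 changed sign, in 4 of 17 lists (counter-receptors, neutrophil, macrophage and diapedesis genes), each time with a library left out. The count of members without overlap between groups was 2, and it was 1 after median-of-ratios scaling and 1 after quantile normalization, because Prox1 then overlapped. Leaving out 1 library gave 2 to 5. With fewer libraries the groups separate more easily, and the share over all genes was not worked out for these settings. The count of members lower at an unadjusted p below 0.05 was 1 to 3 with a library left out, falling to 1 without WT replicate 1 or WT replicate 2. The median over members ran from -0.397 to -0.162, the latter without KO replicate 1. The direction turned in Icam1 (-0.215 to 0.361, negative without WT replicate 3 or KO replicate 2) and Cdh5 (-0.338 to 0.108, positive without KO replicate 1). The lowest adjusted p of any member in limma was 0.412, for Lyve1 without WT replicate 3. Genes lower in KO made up 63.1% of all at an unadjusted p below 0.05, against 50.6% after median-of-ratios scaling and 45.4% after quantile normalization, which moved the median of all genes from -0.032 to -0.003 and 0.006.

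The libraries numbered 1 deviated together, and those numbered 2 and 3 did not (correlations over genes of 0.376, -0.306 and -0.222). Between libraries of unlike number the correlations ran from -0.382 to 0.449, so the shared number was not taken as a pairing. With the replicate block, 3 members were lower at an unadjusted p below 0.05, Sele (p 0.0147) beside Tek and Lyve1, and 591 genes in all against 412. Depth limits Sele among the members, with 6 and 7 implied reads in KO replicates 3 and 2.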
